A study of Homo sapiens with 16 samples.

Results

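Small nucleolar RNA host genes were followed across 4 groups of HEK293T libraries. They were taken by name: every gene named SNHG with a number, together with GAS5, ZFAS1, DANCR and EPB41L4A-AS1. This gave 28 of the 57500 genes counted, and 24 of them passed the filter on low counts that left 17306 tested genes. The members were chosen by name, but the family itself was selected on the counts and fold changes of these same libraries, so its counts and medians describe it and are not an independent check.

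A host gene is transcribed and spliced like a messenger RNA gene, but its introns carry small nucleolar RNAs (snoRNAs), which are trimmed from the excised introns and guide methylation (box C/D) or pseudouridylation (box H/ACA) of ribosomal RNA. A related kind, the scaRNAs, guides the same changes on spliceosomal RNAs in Cajal bodies. The spliced exons of many host genes are noncoding, short-lived and removed by nonsense-mediated decay when translated. Many host genes start, like ribosomal protein genes, with a run of C and T at the first base (a 5′ terminal oligopyrimidine, or TOP, start), a feature tied to control of ribosome production by growth signals.

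HEK293T is a line of human embryonic kidney origin with the SV40 large T antigen. A lentiviral vector was present in every group, with histone H2A in 3 groups and with H2A(E92K), an acidic patch mutant, in the other. The groups, each with 4 libraries, were H2A given DMSO, H2A(E92K) given DMSO, H2A given 1 µM JQ1 for 3 h and H2A given 2.5 µM pinometostat for 24 h. JQ1 blocks the bromodomains of BET proteins and pinometostat inhibits DOT1L, a methyltransferase of histone H3 on transcribed genes. The promoter of the vector, the number of clones and the time in DMSO were not given in the sources used here, and the same 4 H2A libraries with DMSO were the controls for all 3 comparisons. The labels do not state separate cultures, so p-values measure only how these libraries vary, and that variation may be technical.

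Depth ran from 17779692 to 27599686 counts per library. Mitochondrial genes made up 16.5% of JQ1 replicate 1, while the remaining JQ1 libraries had 3.04% to 3.69%. They made up 7.45% of H2A(E92K) replicate 4, where the lowest share of the group was 3.77%. With pinometostat the share was 4.43% to 5.04%, above the 3.66% to 4.02% of the controls with no overlap. Results of the host genes that rest on these libraries are given with and without them. Markers recorded from HEK293T, such as SIX2 (18.5 to 60.7 TPM, counts per exonic length scaled to a fixed sum), NEFM (56.9 to 231 TPM) and KRT18 (34.1 to 58.4 TPM), were present in every library, while over all 16 libraries the blood genes HBB, PTPRC and CD3E had 0, 7 and 8 counts and the liver gene ALB had 23. The marker levels differed between groups: KRT18 was at 47.5 to 58.4 TPM in controls and 34.1 to 38.6 TPM with pinometostat, and SIX2 was at 48.0 to 58.2 TPM in controls and 18.5 to 27.2 TPM with JQ1. Of the 8 tested markers, 0 rose and 1 fell with pinometostat, with all 8 fitted below 0 (median log2 fold change -0.40), and 1 rose and 3 fell with JQ1 (edgeR, Benjamini-Hochberg).

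The host genes together took 0.150% to 0.188% of the counts in H2A libraries with DMSO and 0.241% to 0.295% with pinometostat, so that these groups did not overlap. The range was 0.187% to 0.243% in H2A(E92K) and 0.160% to 0.204% with JQ1, and both overlapped the controls. In bulk RNA, fewer expressing cells and less RNA per cell cannot be told apart.

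Starts of several members are shown because host genes and ribosomal protein genes are compared below. Each window holds 10 bases before and 50 bases from the RefSeq start (GRCh38.p14), 5′ to 3′, with the longest run of C and T that covers the start, or begins within 5 bases of it, in capitals.
SNHG5, chr6:85678684-85678743, minus strand: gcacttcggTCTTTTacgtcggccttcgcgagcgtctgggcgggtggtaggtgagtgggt
ZFAS1, chr20:49278632-49278691, plus strand: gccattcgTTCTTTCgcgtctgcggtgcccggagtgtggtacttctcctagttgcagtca
SNHG19, chr16:2155309-2155368, minus strand: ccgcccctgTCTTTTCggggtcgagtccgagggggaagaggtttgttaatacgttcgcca
SNHG12, chr1:28581824-28581883, minus strand: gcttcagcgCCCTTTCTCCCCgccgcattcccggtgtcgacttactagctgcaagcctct
SNHG10, chr14:95534823-95534882, minus strand: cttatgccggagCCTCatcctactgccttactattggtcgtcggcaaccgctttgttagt
SNHG3, chr1:28505933-28505992, plus strand: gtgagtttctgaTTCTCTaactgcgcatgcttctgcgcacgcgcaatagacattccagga
SNHG20, chr17:77088633-77088692, plus strand: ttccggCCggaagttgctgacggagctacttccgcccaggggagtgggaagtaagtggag
SNHG5, ZFAS1, SNHG19 and SNHG12 have C at the start followed by at least 4 C or T, and the other 3 do not. Such starts are more frequent among those shown than among all tested members, for which the share is given below. GAS5, not shown, had a run of 3 bases and no such start at its RefSeq start, which was at -163 bases, upstream of the start in the files. The start in the files was not scored, so this does not show that GAS5 lacks a TOP start. The RefSeq start lies 464 bases downstream of the start in the files for ZFAS1, 1110 for SNHG12 and 1927 for SNHG20.

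A RefSeq start was matched for 24 of the 28 members, of which 20 were tested. A run of 5 or more C or T that covered the start or began within 5 bases of it was found in 13 of these 20 (65.0%), in 61 of 78 ribosomal protein genes (78.2%) and in 26.0% of all 35116 RefSeq starts (25.9% for tested genes). The stricter TOP-like start, C followed by at least 4 C or T, was found in 5 of 20 host genes (25.0%), 47 of 78 ribosomal protein genes (60.3%) and 4.07% of all starts (4.97% for tested genes). Both shares were scored at RefSeq starts alone, so they depend on where those starts were placed. Whether that placement was equally exact in host genes and ribosomal protein genes was not tested. Over all starts of a set, short runs included, the median length of the longest run at the start was 6 bases in host genes, 10 in ribosomal protein genes and 3 over all. From 250 bases before to 50 bases after each start, on both strands, the E-box CACGTG, a palindrome that MYC can bind, occurred in 1 of 20 host genes, in 9.19% of the promoters of 16831 tested genes and in 7.26% of all promoters. TATAAA, the core TATA sequence, occurred in 4 of 20, in 6.49% for tested genes and in 11.5% of all. These matches are letters in a window and do not show that a factor was bound.

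Compared per exonic length, GAS5 (mean of 16 libraries 501 TPM) and SNHG5 (409 TPM) were the most abundant members and made up 41.6% of the summed level of the family. SNHG6 (219 TPM), ZFAS1 (164 TPM), SNHG19 (122 TPM), SNHG1 (122 TPM), SNHG8 (109 TPM) and SNHG16 (86.3 TPM) followed. In H2A libraries with DMSO, GAS5 stood at 424 ± 56.2 TPM and SNHG5 at 361 ± 37.4 TPM (SD, n = 4), and the values of the single libraries overlapped. SNHG19, SNHG1 and SNHG8 (96.0 ± 16.4, 88.6 ± 28.5 and 109 ± 13.5 TPM) overlapped likewise. These ranges across libraries alone do not set the order of the genes, and their order within each library was not compared. In all, 17 members had a mean of at least 20 TPM. SNHG22 was the lowest tested member at 0.578 TPM, and SNHG28, SNHG18, SNHG14 and SNHG27 had 73, 20, 35 and 0 counts over 16 libraries and were not tested.

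**Figure D1:**
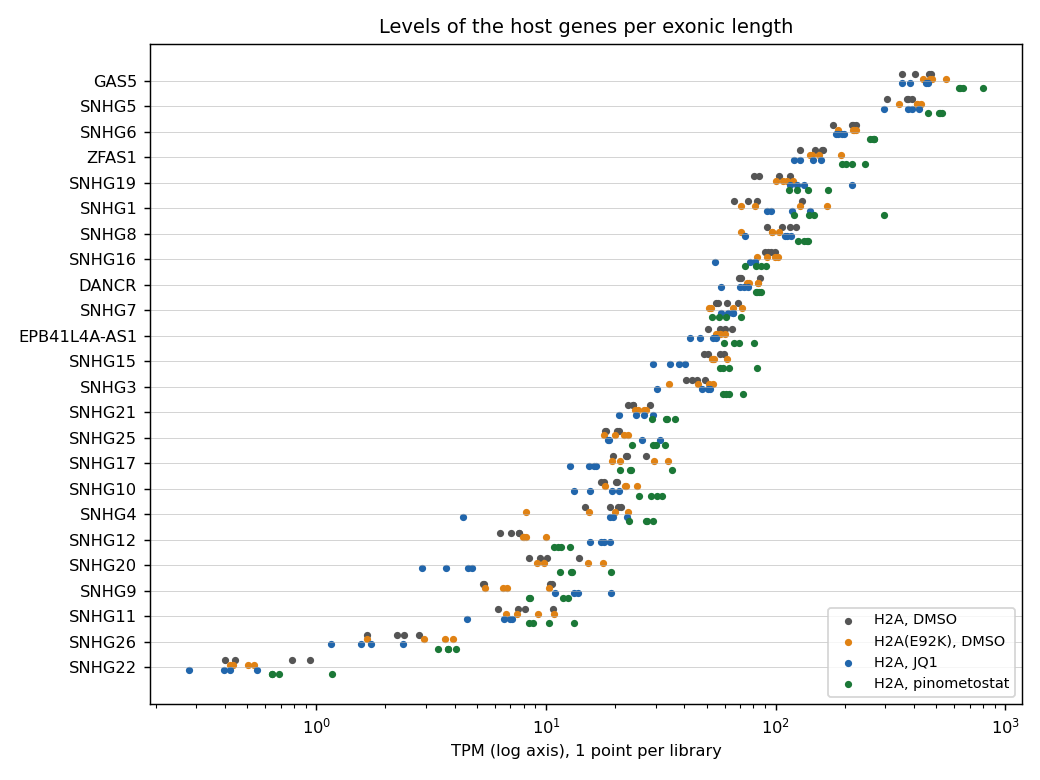
TPM of the 24 tested host genes, 1 point per library on a log axis, coloured by group and ordered by mean level. GAS5 and SNHG5 lie at the top, and the pinometostat points lie to the right of the H2A points with DMSO for most members.

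The pinometostat libraries were compared with DMSO for the effect of 24 h of DOT1L inhibition. Of the 24 tested host genes 11 rose and 0 fell (quasi-likelihood test of edgeR, adjusted p below 0.05 after Benjamini-Hochberg over all tested genes), where 8.2% of all genes were called, 3.62% higher and 4.58% lower. These were SNHG3, SNHG10, GAS5, SNHG12, SNHG5, SNHG21, SNHG26, SNHG8, ZFAS1, SNHG25 and SNHG1. The fitted log2 fold change was above 0 in 23 of 24 members, with a median of 0.56 against 0.03 over all tested genes, and ranged from -0.04 for SNHG16 to 1.1 for SNHG1. In 14 members every pinometostat library lay above every control, and in 0 below, where the groups did not overlap in 26.3% of all genes.

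The part of the higher mitochondrial share and of the lower marker levels with pinometostat in these rises was not tested. The count depended on which libraries entered. Without JQ1 replicate 1 and H2A(E92K) replicate 4, which both enter the estimate of a gene's spread, it was 19 of 24 (12.9% of all genes were then called higher). It was 2 without DMSO replicate 1 (0.449% of all genes called higher), 6 without replicate 2 (1.71%), 6 without replicate 3 (1.54%) and 12 without replicate 4 (3.86%). It was 5, 7, 4 and 5 without pinometostat replicates 1, 2, 3 and 4, where 1.02%, 1.64%, 1.68% and 1.68% of all genes were called higher. The median stayed between 0.51 and 0.63 when any single library of the comparison was left out, and was 0.40 on TPM, where that of all genes was -0.09.

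The single calls differed in how many of 19 other settings kept them. SNHG10 kept its call in 19 and SNHG3 in 18. GAS5 and SNHG12 kept theirs in 17 and SNHG5 in 15, and all 3 lost it without DMSO replicate 1, SNHG5 also without pinometostat replicate 3. SNHG1, ZFAS1, SNHG21 and SNHG26 kept theirs in 10, SNHG25 in 7 and SNHG8 in 6. ZFAS1, SNHG25 and SNHG8 lost the call without any 1 of DMSO replicates 1, 2 and 3 or of the 4 pinometostat libraries. SNHG26 lost it without DMSO replicate 1 or 2 or any 1 pinometostat library. SNHG1 lost it without DMSO replicate 1, 2 or 3 or pinometostat replicate 1, 3 or 4, and SNHG21 without DMSO replicate 1 or 3 or pinometostat replicate 1, 3 or 4.

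**Figure D2:**
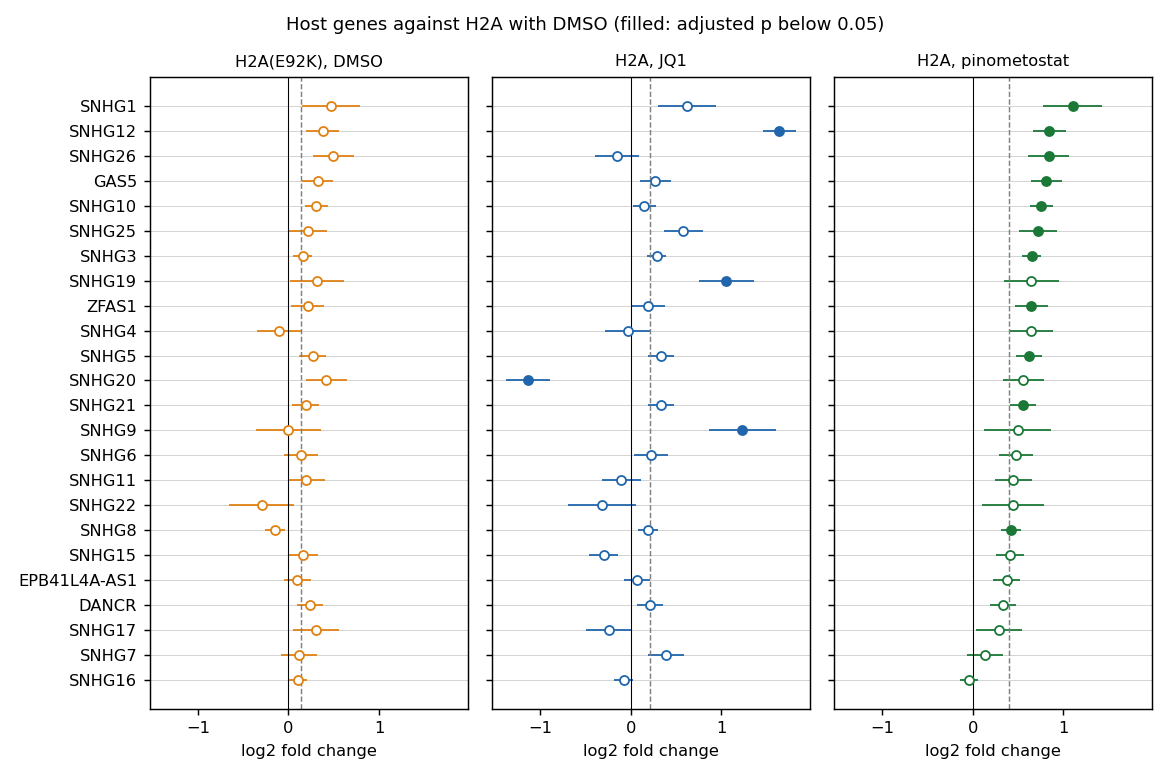
Log2 fold changes against H2A with DMSO (points) with their standard errors (bars) for 24 host genes in the 3 comparisons, filled where the adjusted p was below 0.05. The dashed line in each panel is the median of 79 ribosomal protein genes, 0.14, 0.22 and 0.40. On TPM the JQ1 value was -0.09, where the median of all genes was -0.21.

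Hosts of box C/D snoRNAs held the most abundant of the genes that rose. For GAS5 no named small RNA was placed inside the gene by the coordinates used here. GAS5 (ENSG00000234741, chromosome 1, 173863900 to 173868882, minus strand, GRCh38), growth arrest-specific 5, is named for its accumulation in arrested cells, and its spliced RNA is known as a decoy for the glucocorticoid receptor. It was at 375, 501, 552 and 479.6 CPM (counts scaled to a common TMM-adjusted library size) in the 4 H2A libraries with DMSO and at 947, 771, 859 and 772 CPM with pinometostat. It was at 568, 558, 479.8 and 780.2 CPM in H2A(E92K) and at 766, 562, 534 and 442 CPM with JQ1. The lowest pinometostat library lay above the highest control, while H2A(E92K) replicate 4 and JQ1 replicate 1, the libraries with high mitochondrial shares, lay near the lowest pinometostat value. GAS5 rose by 0.81 ± 0.17 on the log2 scale (edgeR Benjamini-Hochberg adjusted p = 0.0119), or 1.76-fold.

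SNHG5 (ENSG00000203875, chromosome 6, 85660950 to 85678736, minus strand) carries SNORD50B. Its values were 250.0, 309, 349 and 341 CPM with DMSO and 468, 493, 525 and 436 CPM with pinometostat. The H2A(E92K) libraries gave 380.0, 387, 291 and 445 CPM and the JQ1 libraries 494, 353, 384 and 347 CPM. All pinometostat libraries exceeded all controls, and the first JQ1 library was again the highest of its group. SNHG5 rose by 0.62 ± 0.15 (edgeR Benjamini-Hochberg adjusted p = 0.0177).

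ZFAS1 (ENSG00000177410, chromosome 20, 49278178 to 49295738, plus strand), which carries SNORD12, SNORD12B and SNORD12C and lies opposite ZNFX1, was at 83.8, 99.0, 115 and 118 CPM in controls and 179, 145, 174 and 153 CPM with pinometostat. Levels in H2A(E92K) were 115, 101, 97.3 and 167 CPM, and those with JQ1 were 160.1, 109.6, 115 and 90.6 CPM. The pinometostat and control groups were separate. H2A(E92K) replicate 4 and JQ1 replicate 1 were within the pinometostat range. The rise with pinometostat was 0.65 ± 0.18 (edgeR Benjamini-Hochberg adjusted p = 0.0366). ZNFX1, which shares 11.1% of the exonic length of ZFAS1 on the opposite strand, had a log2 fold change of -0.07 ± 0.12.

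SNHG1 (ENSG00000255717, chromosome 11, 62851988 to 62855914, minus strand) carries SNORD22, SNORD25, SNORD26, SNORD27, SNORD28 and SNORD30. It was at 72.0, 93.1, 90.8 and 159 CPM with DMSO and 364, 151, 200.4 and 177 CPM with pinometostat. In H2A(E92K) it was at 88.1, 98.5, 145 and 243 CPM and with JQ1 at 206, 148, 173 and 114 CPM. SNHG1 varied most among the abundant members: DMSO replicate 4 lay above the second pinometostat library, so the groups overlapped, and pinometostat replicate 1 lay far above the other 3. The rise of 1.1 ± 0.33 (edgeR Benjamini-Hochberg adjusted p = 0.0443) was the largest of the comparison and had the largest standard error of the 11. Without pinometostat replicate 1 it was 0.76 (edgeR Benjamini-Hochberg adjusted p = 0.177).

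SNHG25 and SNHG26 rose from low levels. SNHG25 (ENSG00000266402, chromosome 17, 64145970 to 64146476, plus strand), with SNORD104 and SNORA50C, was at 1.46, 1.68, 1.63 and 1.88 CPM in controls and 2.15, 3.07, 2.95 and 2.82 CPM with pinometostat. It was at 1.65, 1.95, 1.68 and 2.46 CPM in H2A(E92K) and at 3.12, 2.44, 2.85 and 1.63 CPM with JQ1. Pinometostat and control values did not overlap, and the JQ1 values ran from among the controls to above the highest pinometostat value. SNHG25 rose by 0.72 ± 0.21 (edgeR Benjamini-Hochberg adjusted p = 0.0437). SNHG26 (ENSG00000228649, chromosome 7, 22854178 to 22861579, plus strand), with SNORD93, was at 1.28, 1.89, 2.36 and 1.92 CPM in controls and 3.22, 3.54, 3.55 and 2.99 CPM with pinometostat. The H2A(E92K) values were 3.43, 2.48, 2.87 and 1.70 CPM and the JQ1 values 1.81, 2.10, 1.35 and 1.45 CPM. Here pinometostat lay above all controls and all JQ1 libraries, while H2A(E92K) ranged from among the controls to the pinometostat values. SNHG26 rose by 0.84 ± 0.23 (edgeR Benjamini-Hochberg adjusted p = 0.0308).

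Hosts of box H/ACA snoRNAs were also among the genes called. SNHG3 (ENSG00000242125, chromosome 1, 28505980 to 28510892, plus strand), with SNORA73A and SNORA73B, was at 54.3, 60.0, 53.2 and 57.3 CPM with DMSO and 83.6, 97.9, 87.5 and 83.5 CPM with pinometostat. It was at 72.0, 67.4, 56.7 and 54.4 CPM in H2A(E92K) and 74.0, 71.3, 67.7 and 61.8 CPM with JQ1. Every pinometostat library exceeded every library of the other 3 groups. SNHG3 rose by 0.65 ± 0.11 and had the lowest adjusted p of the family in this comparison (edgeR Benjamini-Hochberg adjusted p = 0.00428), and lost its call in limma on TPM alone. It overlaps RCC1, a regulator of the GTPase Ran on the same strand, over 5.92% of its exonic length, and RCC1 had a log2 fold change of 0.01 ± 0.11.

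SNHG12 (ENSG00000197989, chromosome 1, 28578538 to 28582983, minus strand) lies 67645 bases from SNHG3 on the opposite strand and carries SNORA16A, SNORA44, SNORA61 and SNORD99. It was at 7.51, 7.65, 7.56 and 6.95 CPM with DMSO and 12.8, 14.4, 13.3 and 12.9 CPM with pinometostat. It was at 9.0, 8.64, 10.2 and 10.7 CPM in H2A(E92K) and 36.0, 19.7, 20.9 and 16.6 CPM with JQ1. The controls were tightly grouped, and the libraries of each other group lay above all of them. With pinometostat SNHG12 rose by 0.85 ± 0.18 (edgeR Benjamini-Hochberg adjusted p = 0.0123).

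SNHG8 (ENSG00000269893, chromosome 4, 118278709 to 118279823, plus strand) carries SNORA24. It was at 24.6, 31.8, 31.3 and 36.8 CPM with DMSO and 41.6, 40.7, 41.6 and 42.6 CPM with pinometostat. H2A(E92K) libraries gave 29.4, 28.5, 28.9 and 25.4 CPM and JQ1 libraries 40.5, 34.7, 35.0 and 32.2 CPM. The pinometostat libraries lay close together above all others, and the H2A(E92K) libraries lay within the lower part of the control range. SNHG8 rose by 0.42 ± 0.11 (edgeR Benjamini-Hochberg adjusted p = 0.0310), the smallest of the 11 rises.

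The remaining pair hosts scaRNAs. SNHG10 (ENSG00000247092, chromosome 14, 95532297 to 95534872, minus strand), with SCARNA13, was at 9.87, 11.7, 12.6 and 11.4 CPM in controls and 18.3, 20.8, 17.9 and 19.9 CPM with pinometostat. It was at 14.2, 13.9, 14.5 and 13.6 CPM in H2A(E92K) and 15.3, 13.6, 12.3 and 9.56 CPM with JQ1. Pinometostat lay above every other library, and H2A(E92K) lay between the controls and pinometostat without overlap with either. SNHG10 rose by 0.75 ± 0.13 (edgeR Benjamini-Hochberg adjusted p = 0.00516). GLRX5, a mitochondrial glutaredoxin gene that shares 20.1% of the exonic length of SNHG10 on the opposite strand, had a log2 fold change of -0.01 ± 0.11. SNHG21 (ENSG00000250988, chromosome 15, 82750564 to 82757206, plus strand), with SCARNA15, was at 7.36, 8.89, 8.05 and 7.85 CPM in controls and 11.5, 10.2, 12.7 and 13.0 CPM with pinometostat. The H2A(E92K) libraries had 9.54, 8.53, 7.79 and 10.9 CPM and the JQ1 libraries 13.1, 9.47, 10.0 and 8.21 CPM. All pinometostat values were above all controls, and JQ1 replicate 1 was as high as the highest of them. SNHG21 rose by 0.56 ± 0.15 (edgeR Benjamini-Hochberg adjusted p = 0.0277). A total of 72.9% of its exonic length is shared with AC105339.2 on the same strand, so reads of these genes could be split in counting, and AC105339.2 had a log2 fold change of 0.46 ± 0.35 with pinometostat.

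**Figure D3:**
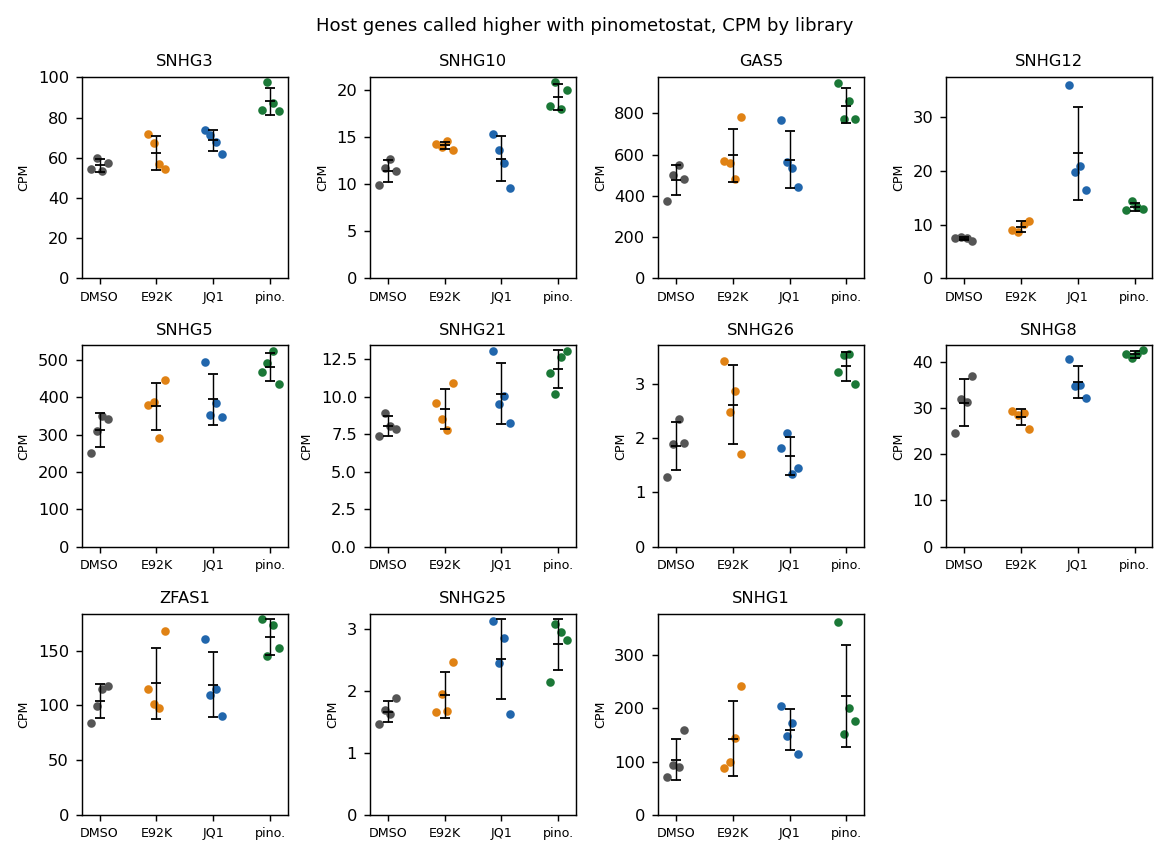
CPM of the 11 host genes called higher with pinometostat, 1 point per library, with group means (wide ticks) and SD (bars), n = 4 per group. Every panel starts at 0, and in 10 of the 11 panels all pinometostat points lie above all H2A points with DMSO, SNHG1 being the exception.

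Of the 13 tested members not called with pinometostat, 12 had a fitted value above 0. SNHG6 (ENSG00000245910), with SNORD87, was at 64.8, 83.1, 86.7 and 87.7 CPM with DMSO and 105, 111, 120.4 and 112 CPM with pinometostat. It was at 90.9, 86.9, 70.4 and 108 CPM in H2A(E92K) and 147, 76.5, 75.8 and 76.8 CPM with JQ1. The pinometostat values were above all controls, and JQ1 replicate 1 was the highest of all 16. The log2 fold change with pinometostat was 0.48 ± 0.19 (edgeR Benjamini-Hochberg adjusted p = 0.120). SNHG4 (0.65), SNHG19 (0.65) and EPB41L4A-AS1 (0.37) also had groups that did not overlap without passing the test. The MATR3 entry ENSG00000280987, which shares 28.8% of the exonic length of SNHG4 on the same strand, was at 0.54 ± 0.29 with pinometostat.

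SNHG16 (ENSG00000163597, chromosome 17, 76557766 to 76565348, plus strand), host of SNORD1A, SNORD1B and SNORD1C, was the sole tested member below 0. It was at 156, 144, 163 and 162 CPM with DMSO and 129, 155, 159.5 and 165 CPM with pinometostat. Its values were 162, 172, 165 and 173 CPM in H2A(E92K) and 174, 146, 135 and 137 CPM with JQ1. The groups overlapped, and the fitted value was -0.04 ± 0.10 (edgeR Benjamini-Hochberg adjusted p = 0.843). SNHG7, DANCR, SNHG15, SNHG17, SNHG20, SNHG9, SNHG11 and SNHG22 lay between 0.14 and 0.56 and overlapped the controls.

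The JQ1 libraries were compared with the same controls for the effect of 3 h of BET inhibition. Of the 24 tested host genes, 3 rose (SNHG12, SNHG9 and SNHG19) and 1 fell (SNHG20), where 17.6% of all tested genes were called, 7.16% higher and 10.4% lower (edgeR quasi-likelihood test, Benjamini-Hochberg). Fitted values were above 0 in 16 members and below 0 in 8, with a median of 0.20 against 0.04 over all genes, which turned to -0.11 on TPM, where the median of all genes was -0.21, and to 0.00 with library size alone, where that of all genes was -0.14. Groups did not overlap in 5 members, 4 above the controls (SNHG12, SNHG9, SNHG19 and SNHG3) and 1 below (SNHG20), where 20.5% of all genes did not overlap. Without JQ1 replicate 1 the median was 0.06, and 1 member rose and 2 fell. The count of rises was 1 also without DMSO replicate 1 and 5 without JQ1 replicate 4. The shares of all genes called in these settings are not given here, so these counts alone do not show a change in the host genes.

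SNHG12 had the largest change of the family. The values given above put all 4 JQ1 libraries over all others of the study, with the first replicate highest. The mean went from 7.42 ± 0.318 to 23.3 ± 8.69 CPM (SD, n = 4), a rise of 1.64 ± 0.18 (edgeR Benjamini-Hochberg adjusted p = 6.28e-06), or 3.12-fold. It kept its call in all 19 other settings and was 1.33 without JQ1 replicate 1 (edgeR Benjamini-Hochberg adjusted p = 8.34e-08). SNHG12 was the 1 member called with both JQ1 and pinometostat, comparisons that share their controls. TRNAU1AP, which overlaps SNHG12 by 8 exonic bases on the opposite strand, was not called with JQ1 (edgeR Benjamini-Hochberg adjusted p = 0.988). It was at 0.32 ± 0.14 with pinometostat and 0.31 ± 0.14 in H2A(E92K), also without a call, where SNHG12 was at 0.85 ± 0.18 and 0.38 ± 0.18.

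SNHG20 (ENSG00000234912, chromosome 17, 77086716 to 77094990, plus strand), host of SCARNA16, was the 1 host gene that fell. It was at 9.24, 8.79, 8.38 and 14.2 CPM with DMSO and 5.37, 4.98, 4.66 and 3.64 CPM with JQ1. It was at 10.2, 9.14, 16.7 and 18.4 CPM in H2A(E92K) and 19.6, 12.0, 14.7 and 13.6 CPM with pinometostat. All JQ1 libraries lay below every other library of the study, and DMSO replicate 4 stood above the other controls. SNHG20 fell by 1.13 (log2, standard error 0.24; edgeR Benjamini-Hochberg adjusted p = 0.00319), a call kept in all 19 other settings. SEC14L1, which shares 18.3% of the exonic length of SNHG20 on the same strand, was at -0.10 ± 0.15 (edgeR Benjamini-Hochberg adjusted p = 0.699). SNHG16, the nearest other member at 521367 bases, was at -0.08 ± 0.10.

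SNHG19 and SNHG9 lost their calls without the first JQ1 library, but not when H2A(E92K) replicate 4 was left out as well (edgeR Benjamini-Hochberg adjusted p = 0.0421 for SNHG19 and 0.0497 for SNHG9). Both also lost them without DMSO replicate 1, SNHG9 without DMSO replicate 3 and SNHG19 without DMSO replicate 4. SNHG19 (ENSG00000260260, chromosome 16, 2154797 to 2155358, minus strand), with SNORD60, was at 8.03, 11.8, 11.3 and 9.43 CPM with DMSO and 43.7, 14.3, 14.9 and 12.5 CPM with JQ1. It was at 13.5, 12.3, 10.4 and 14.3 CPM in H2A(E92K) and 12.8, 14.1, 17.2 and 19.6 CPM with pinometostat. The other 3 JQ1 libraries lay above the controls but among the H2A(E92K) and pinometostat values. SNHG19 rose by 1.06 ± 0.30 (edgeR Benjamini-Hochberg adjusted p = 0.0220), and without JQ1 replicate 1 the value was 0.42 (edgeR Benjamini-Hochberg adjusted p = 0.0674).

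SNHG9 (ENSG00000255198, chromosome 16, 1964959 to 1965509, plus strand), with SNORA78, was at 0.863, 1.75, 0.935 and 1.88 CPM with DMSO and 6.31, 2.54, 2.38 and 1.91 CPM with JQ1. It was at 1.24, 1.15, 0.902 and 2.19 CPM in H2A(E92K) and 2.24, 2.18, 1.70 and 1.56 CPM with pinometostat. Again JQ1 replicate 1 stood apart, and the lowest JQ1 library was just above the highest control. SNHG9 rose by 1.24 ± 0.37 (edgeR Benjamini-Hochberg adjusted p = 0.0269), and was at 0.71 without JQ1 replicate 1 (edgeR Benjamini-Hochberg adjusted p = 0.109). That library also held 16.5% mitochondrial counts, and the part of this in the values was not tested. Among members not called, the values with JQ1 ranged from -0.31 for SNHG22 and -0.30 for SNHG15 to 0.62 for SNHG1.

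**Figure D4:**
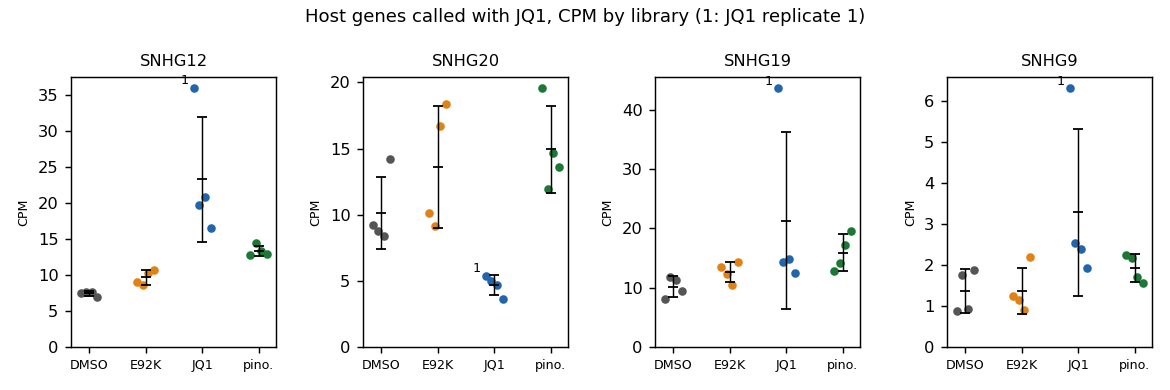
CPM of the 4 host genes called with JQ1, 1 point per library with group means (wide ticks) and SD (bars), n = 4 per group, and JQ1 replicate 1 marked 1. All JQ1 points lie above the H2A points with DMSO for SNHG12, SNHG19 and SNHG9 and below them for SNHG20, and replicate 1 is far above the other JQ1 libraries for SNHG19 and SNHG9.

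H2A(E92K) against H2A, both with DMSO, asked what the acidic patch mutant changed. Of the 24 tested host genes 0 were called by edgeR in either direction (0% of all genes, Benjamini-Hochberg), 0 by DESeq2 and 0 by limma on TPM. An unadjusted p below 0.05 was reached by 2 members in edgeR, SNHG10 (0.31 ± 0.13) and SNHG26 (0.50 ± 0.23), and by 1296 of all tested genes. Fitted values were above 0 in 20 members, with a median of 0.20 against 0.00 over all genes and a range from -0.30 to 0.50. The groups did not overlap in 2 members, SNHG10 and SNHG12, both above the controls, where 5.17% of all genes did not overlap. Without H2A(E92K) replicate 4, the library with 7.45% mitochondrial counts, the median was 0.06, and on TPM it was 0.07, where that of all genes was -0.09.

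Ribosomal protein genes were set beside the host genes. Of the 79 genes of cytosolic ribosomal proteins, 24 rose and 0 fell with pinometostat (edgeR, Benjamini-Hochberg), with a median of 0.40 and 65 genes whose groups did not overlap. Of all tested genes 3.62% were called higher and 4.58% lower, and groups did not overlap in 26.3%. The count was 63 without JQ1 replicate 1 and H2A(E92K) replicate 4, 47 without JQ1 replicate 1 alone and 8 without DMSO replicate 1. The share of all genes called higher also moved between such settings, as given above, and that without JQ1 replicate 1 alone is not given here. With JQ1 and in H2A(E92K), 0 were called by edgeR, with 7 and 1 genes at an unadjusted p below 0.05. The median with JQ1 was 0.22, which was -0.09 on TPM and 0.06 without JQ1 replicate 1. The median in H2A(E92K) was 0.14, which was 0.01 on TPM, 0.06 without DMSO replicate 1 and 0.03 without H2A(E92K) replicate 4. On TPM the median of all genes was -0.21 with JQ1 and -0.09 in H2A(E92K). Ribosomal protein genes took 13.8% to 16.8% of the counts in controls and 19.3% to 20.4% with pinometostat.

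Host genes and ribosomal protein genes were then compared library by library, as the median of their log2 CPM relative to the mean of the controls. With pinometostat the host gene medians ran from 0.48 to 0.61 and the ribosomal protein medians from 0.33 to 0.53. In the controls the host genes ran from -0.19 to 0.14 and the ribosomal protein genes from -0.24 to 0.15, both lowest in replicate 1 and highest in replicate 4. JQ1 replicate 1 (0.55 and 0.56) and H2A(E92K) replicate 4 (0.52 and 0.42) reached or passed the pinometostat range in both medians, and the other libraries of these groups lay at or below 0.20 in both. The host median minus the ribosomal protein median was 0.05 to 0.28 with pinometostat and -0.12 to 0.09 in controls, ranges that overlapped, and the difference between the families was not tested. Of the 24 host genes 19 lay above the ribosomal protein median of 0.40 with pinometostat.

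**Figure D5:**
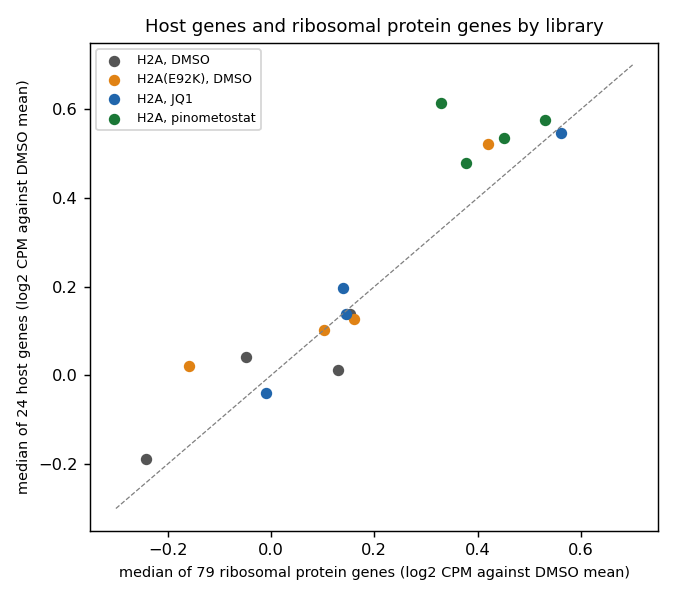
Median of the 24 host genes against the median of the 79 ribosomal protein genes in each library, both as log2 CPM relative to the mean of the H2A libraries with DMSO, 1 point per library. The dashed line marks equal values, the 4 pinometostat points lie above it, and the JQ1 and H2A(E92K) points near them are JQ1 replicate 1 and H2A(E92K) replicate 4.

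With pinometostat, lists of related genes had members called in both directions or in neither. Of 20 TOP genes that encode no ribosomal protein, 3 rose and 2 fell with pinometostat, with a median of 0.16 (edgeR, Benjamini-Hochberg). The elongation factor subunit EEF1B2 (0.53 ± 0.13) and TPT1 (0.53 ± 0.14) rose, and the elongation factor EEF2 (-0.50 ± 0.13) and the poly(A)-binding protein PABPC1 (-0.35 ± 0.10) fell. Of all tested genes 3.62% were called higher and 4.58% lower. Without DMSO replicate 1 none of the 20 was called by edgeR, and fewer of all genes were called higher, as given above. With JQ1, EEF1D (0.35 ± 0.08) rose and 0 fell.

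Of 19 genes for snoRNA-bound proteins and their assembly factors, the assembly factors ZNHIT3 (0.55 ± 0.12) rose and ZNHIT6 (-0.41 ± 0.12) fell with pinometostat, with a median of 0.03 (edgeR, Benjamini-Hochberg). With JQ1 the box C/D core protein NOP56 (0.41 ± 0.11) and the ATPase RUVBL2 (0.46 ± 0.15) rose, and COIL (-0.61 ± 0.11), the scaffold of Cajal bodies, fell. Without JQ1 replicate 1, pinometostat gave 1 rise and 6 falls in this list. Other lists also had more calls then, with 47 ribosomal protein genes higher against 24 and 5 markers lower against 1. The share of all genes called in that setting is not given here, so these counts alone do not show a change in this list. Of 18 nonsense-mediated decay factors, 0 were called by edgeR with pinometostat (3 at an unadjusted p below 0.05, median -0.12), and 2 rose with JQ1, PNRC2 (0.39 ± 0.10) and RBM8A (0.35 ± 0.10), a count that was 5 without JQ1 replicate 1. The share of all genes called higher with JQ1 in that setting is likewise not given here.

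Genes outside the family that hold a snoRNA or scaRNA gave another view. Of 139 such genes that encode no ribosomal protein, 8 rose and 9 fell with pinometostat, with a median of 0.04. Of all tested genes 3.62% were called higher and 4.58% lower. The smallest adjusted p of the 139 was that of LRRC75A-AS1, which rose (0.60 ± 0.13, edgeR Benjamini-Hochberg adjusted p = 0.0130). The family was taken by name, so this set can hold host genes named otherwise. Of 28 ribosomal protein genes that hold a snoRNA or scaRNA, 7 rose and 0 fell, with a median of 0.38. With JQ1, 14 of the 139 rose and 4 fell, where 7.16% of all genes were called higher and 10.4% lower. Of the 28, 0 were called by edgeR with JQ1.

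The small RNAs inside the host genes were counted poorly. A named snoRNA or scaRNA lies within 25 of the 28 members, 129 in all, of which 83 are in SNHG14. None was placed in GAS5, SNHG28 or SNHG27, so small RNAs of GAS5, the most abundant member, are not covered here. Outside SNHG14 there are 46. The 25 that lie wholly inside an annotated exon of the host had 0 counts in all libraries, as did all 123 small RNAs of the whole series that lie wholly inside an exon. The 20 in introns had 2178 counts over 16 libraries, and 1 on an exon edge had 23. A count of 0 at such a place therefore says nothing of the level of the small RNA.

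SNORD104, in the intron of SNHG25, held 1113 of these counts. It is shown because it is the best-counted small RNA of the family, with the C box GTGATGA and the D box CTGA, the motifs that box C/D proteins bind, in capitals.
SNORD104, chr17:64146083-64146152, plus strand: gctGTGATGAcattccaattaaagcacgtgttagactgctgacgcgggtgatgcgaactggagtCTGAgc
Its counts were 57, 79, 39 and 52 with DMSO, 84, 86, 68 and 69 in H2A(E92K), 89, 102, 74 and 54 with JQ1 and 44, 75, 73 and 68 with pinometostat. The counts of the groups overlapped, and the JQ1 group held the shallowest library. On the CPM scale it went from 2.08 ± 0.448 with DMSO to 4.45 ± 1.67 with JQ1 (SD, n = 4), a rise of 1.07 ± 0.25 (edgeR Benjamini-Hochberg adjusted p = 0.00667), and the rise was 0.82 ± 0.23 without JQ1 replicate 1 (edgeR Benjamini-Hochberg adjusted p = 0.0170). Its host SNHG25 was at 0.58 ± 0.22 with JQ1 (edgeR Benjamini-Hochberg adjusted p = 0.0727). With pinometostat SNORD104 was at 0.50 ± 0.26 (edgeR Benjamini-Hochberg adjusted p = 0.228), while SNHG25 rose.

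SNORA73B, in an intron of SNHG3, had 34, 48, 67 and 52 counts in the DMSO, H2A(E92K), JQ1 and pinometostat groups. It rose with JQ1 by 1.54 ± 0.46 (edgeR Benjamini-Hochberg adjusted p = 0.0273) and lost the call without JQ1 replicate 1 (1.21 ± 0.46, adjusted p = 0.0751 by edgeR with Benjamini-Hochberg). SCARNA13, in the intron of SNHG10, had 35, 48, 47 and 67 counts in the same order and was at 1.22 ± 0.41 with pinometostat (edgeR Benjamini-Hochberg adjusted p = 0.0702), which was 1.17 ± 0.40 without JQ1 replicate 1 (adjusted p = 0.0404). Without DMSO replicate 1 the SCARNA13 value was 0.97 ± 0.42 (edgeR Benjamini-Hochberg adjusted p = 0.229). SNORD99, in an intron of SNHG12, had 1 count in each of the 4 control libraries. It had 9, 3, 6 and 9 counts in H2A(E92K), 41, 15, 15 and 9 with JQ1 and 6, 4, 7 and 8 with pinometostat, and was under the filter for testing. Its counts were above the controls in all 12 other libraries, as the CPM of SNHG12 was.

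Of 455 snoRNA and scaRNA genes of the series, 22 passed the filter and were tested. Near the cutoff a gene could pass through libraries outside the controls, which favours genes that are higher there. How far this moved the values below was not tested. Of the 22, 9 rose and 0 fell with JQ1 (edgeR, Benjamini-Hochberg), with a median of 1.15. Of all tested genes 7.16% were called higher with JQ1. With pinometostat 0 were called by edgeR, 6 reached an unadjusted p below 0.05, and the median was 0.85. In H2A(E92K) 0 were called, 17 were fitted above 0, and the median was 0.50. All these comparisons share the same controls, and counts for this set without JQ1 replicate 1 are not given here. Whether the library preparation kept RNAs of this size is not given in the sources used here, and reads of unspliced host RNA at these places cannot be told apart from the small RNA.

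Read sharing with neighbours could touch some members, since the strand setting of the counting is not given. Exons of other genes overlap EPB41L4A-AS1 (EPB41L4A, 49.6% of its exonic length, opposite strand), SNHG4 (MATR3, 28.8%, same strand), SNHG6 (MCMDC2, 29.3%) and SNHG7 (FAM69B, 25.2%). FSD2 overlaps SNHG21 on the opposite strand (34.1%). Small RNAs with 0 counts lie on the same strand over exons of SNHG25 (SNORA50C, 47.8%, and RF00407, 48.6%) and SNHG9 (SNORA78, 23.0%). Whether reads at these places were counted for the host was not tested. Of the 14 overlapping genes that were tested, 0 were called by edgeR in any comparison. Tested host genes had a median exonic length of 2710.5 bases, from 278 for SNHG25 to 5362 for SNHG16, against 4341.5 over all tested genes and 2982 for ribosomal protein genes. With a length trend removed in each library, the host gene median with pinometostat was 0.41 and that of ribosomal protein genes 0.37.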

How the data were processed

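RNA from 16 HEK293T samples in 4 groups was analysed, grouped by sample title. The deposited values are whole-number counts per gene from the authors, 57500 genes per library, per the file headers, and the series table held the same counts in all 920000 cells compared. The aligner, counter, strand setting, library selection and build were not given in the sources used here. Coordinates equal those of GENCODE 29 on GRCh38 for 96.3% of the 56898 shared genes. The DMSO samples have no compound as treatment but DMSO in the title, and the pinometostat dose is that of the sample field, 2.5 µM, since the protocol text gives another unit.

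Low genes were dropped by filterByExpr (count 10, total 15). After TMM scaling, the quasi-likelihood test of edgeR 4.0.16 (R 4.3.3) was run over all 16 libraries, with Benjamini-Hochberg adjustment over 17306 genes, two-sided, and a threshold of 0.05. A standard error is the fold change divided by the square root of F. TPM was computed from the counts and the exonic length in the files. Promoter sequences are from RefSeq (GRCh38.p14) and the snoRNA sequence is from GENCODE 29. The edgeR test was tested on simulated data. Other settings used DESeq2 1.42.0 and limma 3.58.1. The 28 members and the gene lists were chosen with earlier results of these data known. Values in every library are given for members called in any comparison and for the 8 with the highest mean TPM, and list examples are those with the smallest adjusted p. Partners by overlap and small RNAs inside members are named by position.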

Additional observations from a re-analysis of the deposited data

Results flagged for a closer look

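In each group of 4 libraries the highest and lowest value of each tested host gene was checked against the gap to the others, in 96 groups. A library stood apart in 7 of them, and chance gives about 1 in 20 groups. In 4 of these the library was JQ1 replicate 1, which also held 16.5% mitochondrial counts. There SNHG6 was at 147 CPM (75.8 to 76.8 in the other 3), SNHG19 at 43.7 (12.5 to 14.9), DANCR at 78.4 (52.2 to 55.8) and SNHG9 at 6.31 (1.91 to 2.54). In DMSO replicate 4, SNHG17 was at 37.3 CPM (26.2 to 27.8) and SNHG20 at 14.2 (8.38 to 9.24). In pinometostat replicate 4, SNHG22 was at 1.03 CPM (0.555 to 0.600). The cause was not tested.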

How the results depend on the processing

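With pinometostat, all members called kept their direction in all 19 other settings, and the count of 11 rises was 2 at an adjusted p below 0.01, 18 with the 8 libraries of both groups alone, 5 with limma on log2(TPM + 1) and 19 without JQ1 replicate 1 and H2A(E92K) replicate 4. That last setting was chosen with earlier results known, and for the other gene lists and the small RNAs it was added after seeing the data. Leaving out 1 library at a time gave 2 to 12. Of all genes, 0.387% were called higher at an adjusted p below 0.01 and 12.5% with the 8 libraries, against 3.62% in the main fit. The share on TPM is not given here. With JQ1 the count of 3 rises (7.16% of all genes called higher) was 1 at an adjusted p below 0.01 (2.7%). It was 5 with a length trend removed (10.0%) and 1 with 8 libraries (3.08%), and 1 to 5 with a library left out. The count of 1 fall (10.4% of all genes called lower) was 3 with library size alone (15.1%) and 2 on TPM (12.5%). It was 3 without JQ1 replicate 1 and H2A(E92K) replicate 4, and 1 to 2 with a library left out. The shares of all genes called with JQ1 are not given here for settings that leave libraries out. Those counts alone therefore do not show a change in the host genes. The JQ1 median turned to -0.11 on TPM, and that of ribosomal protein genes to -0.0882, where that of all genes was -0.21. The cause of these changes was not tested.

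Replicate numbers are shared by the groups. Of 24 same-number pairs, 2 had a correlation of deviations above 0.1 (-0.56 to 0.24), and 2 of 16 libraries correlated best with their own number. Single libraries weigh on these values, as H2A(E92K) replicate 4 and JQ1 replicate 1 correlated at 0.71. The correlations therefore cannot decide whether libraries were paired by number. With a replicate block, 4 host genes rose with pinometostat, and 534 genes were called in all against 1419.

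Fitted values that changed sign, 43 for single members, belonged to comparisons in which that member had no call. On TPM these were, with JQ1, SNHG3 (-0.00796), GAS5 (-0.0386), DANCR (-0.0908), SNHG8 (-0.0928), EPB41L4A-AS1 (-0.24), SNHG6 (-0.13), SNHG10 (-0.15) and ZFAS1 (-0.12), in H2A(E92K) EPB41L4A-AS1 (-0.0176), SNHG7 (-0.0159) and SNHG16 (-0.00964), and with pinometostat SNHG7 (-0.000823). With library size alone and JQ1 they were EPB41L4A-AS1 (-0.14), SNHG6 (-0.000908), SNHG10 (-0.0433) and ZFAS1 (-0.0105), with a length trend removed SNHG4 with JQ1 (0.0383), and for SNHG9 in H2A(E92K) 0.00590 with 8 libraries and 0.000224 with DESeq2. Without JQ1 replicate 1 and H2A(E92K) replicate 4 they were SNHG4 (0.0846), SNHG7 (-0.0645) and SNHG11 (-0.0286) in H2A(E92K) and EPB41L4A-AS1 (-0.11), SNHG4 (0.18) and SNHG6 (-0.10) with JQ1. With a library left out, the ranges in H2A(E92K) were -0.337 to 0.190 for SNHG9, -0.000164 to 0.153 for EPB41L4A-AS1, -0.255 to 0.0586 for SNHG4, -0.0888 to 0.219 for SNHG7, -0.0518 to 0.396 for SNHG11 and -0.0126 to 0.294 for ZFAS1. With JQ1 they were -0.124 to 0.18 for EPB41L4A-AS1, -0.202 to 0.165 for SNHG4, -0.203 to 0.0953 for SNHG11, -0.105 to 0.321 for SNHG6 and -0.00860 to 0.315 for ZFAS1, and with pinometostat -0.0944 to 0.0296 for SNHG16.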
